A study of Mus musculus with 16 samples.

Results

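Srebf1, Mlxipl, Mlx, Insig2, Ppargc1b, Pnpla3, Usf1 and Scap are 8 genes that drive, assist or answer the transcription of the lipogenic enzymes in liver. They were taken by name, as every microarray probe whose gene name in the scanner files equals one of the 8. This gave 16 probes of the 56605 on the array, or 8 of its 37074 gene names. All 8 genes were among the 20404 genes tested, and 7 of them were well above background on all 16 arrays through the probe that stood for the gene. Pnpla3 was the exception, with 12 of 16 arrays.

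The data are liver transcript levels of 16 male C57Bl/6 mice, 10 weeks old, all fed a normal chow (NC) and never given antibiotics before the transfer. Conv + PBS mice (n = 6) received the vehicle, reduced PBS, although their labels call them not transplanted. Conv + LM mice (n = 5) received caecal content of lean, NC-fed donors by gavage, and Conv + OM(HFD) mice (n = 5) received that of donors made obese by a high-fat diet (HFD). LM and OM stand for lean and obese microbiota, and "Conv" for conventional, meaning that recipients kept a gut microbiota of their own. Caecal content was pooled over donors and recipients were housed in groups, so that a cage or donor pool and the group cannot be told apart. Mice had been fasted when livers were taken. The comparisons asked whether the transcripts of lipogenic regulators differed between recipients, and whether they followed the lipogenic enzymes from mouse to mouse.

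Every array carried 1 mouse. All 8 hepatocyte markers (Alb, Ttr, Apoa1, Cyp2e1, Serpina1c, Tat, Cps1 and Hpd) were well above background on all arrays, and their summed level ranged over 11.95 to 12.30 on the log2 scale. The 75th percentile of brightness ran from 223 to 324 units, and 49.7% to 58.3% of probes were well above background. In whole liver, fewer cells of a type and less RNA per cell cannot be told apart. Values below are log2 intensities minus the 75th percentile of the array, where a difference of 1 is a doubling in brightness and 0 lies at that percentile, and values of different probes are not compared.

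De novo lipogenesis turns acetyl-CoA into fatty acids and is switched on in the fed liver. Insulin raises it through SREBP-1c, a product of Srebf1 that is made as a membrane protein of the endoplasmic reticulum, carried to the Golgi by SCAP (from Scap), held back by the INSIG proteins (Insig1 and Insig2) and released by cleavage. Glucose raises it through ChREBP (Mlxipl), which binds DNA together with its partner MLX. USF1 binds E-boxes of lipogenic promoters, PGC-1β (Ppargc1b) is a coactivator of SREBP, and Pnpla3, which encodes a lipid droplet protein, is a target of both SREBP-1c and ChREBP.

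The probes decide which transcripts were counted, and parts of some are shown here because probes of Mlxipl and of Pnpla3 gave unlike values for the same gene. Positions are those of the array design on mm9. The single Srebf1 probe, A_51_P401921, lies on the minus strand at chr11:60013214-60013273. Mlxipl has 3 probes on the plus strand of chromosome 5. A_55_P2119957, which stood for the gene, is at chr5:135613705-135613764, A_55_P2045158 at chr5:135614195-135614252 and A_55_P2728555 at chr5:135598483-135599113. The last spans 631 bases with 60 probe bases, so its bases are not contiguous on that genome. It shared at least 1 run of 20 identical bases, on either strand, with 9 probes of other genes, and one run, in capitals below, with 7 of them. No other member probe shared such a run with a probe of another gene, and near matches were not searched. A_55_P2045158 spans 58 bases on mm9 with 60 probe bases. The last 30 bases of each probe, or for A_55_P2728555 bases 28 to 57, are, 5′ to 3′ as the scanner files list them:

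Srebf1 A_51_P401921: ctcaccctgggagacctgtacatagtgtag
Mlxipl A_55_P2119957: gcgtatgtggattttataaaaaagaaaatg
Mlxipl A_55_P2045158: atgcacacctttaatcccagtacttgggag
Mlxipl A_55_P2728555: ctctaCTACACAGAGAAACCCTGTCtcaaa
Pnpla3 A_55_P2025514: ggtttgtgcccgaatgacgatgtgcctgct
Pnpla3 A_51_P389265: tggatacaccaaaaataaccacaactgttt

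SREBP-1a and SREBP-1c, whose transcripts differ at their first exons, are not separated by the single Srebf1 probe. No Mlxipl probe was matched to ChREBPα or ChREBPβ.

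Promoters were read for 4 motifs on both strands in the 250 bases before each RefSeq start (GRCm38.p6), because several members are themselves described as targets of these factors. The motifs were the E-box CACGTG, bound by USF1 and resembling the sites of MLX partners, the sterol regulatory element TCACNCCAC, the CCAAT box and the FOXO site TGTTTAC. An E-box was found in 6.02% of all 32851 promoters, a sterol regulatory element in 1.05%, a CCAAT box in 33.8% and a FOXO site in 3.17%. Among the members, E-boxes were found in Mlx, at 1 of 2 starts of Mlxipl and at 1 of 2 starts of Scap, and a sterol regulatory element at the other start of Mlxipl. CCAAT boxes were found in Srebf1 (2 of 3 starts), Mlxipl, Mlx, Insig2 (1 of 3 starts) and Pnpla3, and a FOXO site in none. Usf1 held none of the 4 motifs, and Ppargc1b had no entry. Shown are the E-boxes of the ChREBP and MLX genes, the sterol regulatory element, and the CCAAT box nearest to a start of Srebf1. In these windows capitals mark the motif, and the CCAAT box of Srebf1 is read on the opposite strand.

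Mlx, chr11:101087238-101087277, plus strand: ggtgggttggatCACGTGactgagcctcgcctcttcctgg
Mlxipl, chr5:135089780-135089819, plus strand: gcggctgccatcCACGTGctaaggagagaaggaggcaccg
Mlxipl, chr5:135106743-135106782, plus strand: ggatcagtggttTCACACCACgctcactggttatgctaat
Srebf1, chr11:60210474-60210513, minus strand: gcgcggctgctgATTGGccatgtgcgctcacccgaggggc

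A match describes letters and shows no binding.

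None of the 8 regulators passed a test between the groups by the probe that stood for its gene. In limma, 0 of 8 had an unadjusted p under 0.05 when Conv + OM(HFD) were compared with Conv + PBS mice, where 3.27% of the 20404 genes did (668). The count was also 0 of 8 for Conv + LM vs. Conv + PBS mice, against 3.95% of genes (806), and 0 of 8 when Conv + OM(HFD) were compared with Conv + LM mice, against 2.71% (553). No gene of the array passed after Benjamini-Hochberg adjustment in any of the 3 comparisons (0%), in limma or in the methods' t-test, and the latter also called 0 members without adjustment (635, 759 and 616 genes). The median difference of the 8 members was -0.051, 0.079 and -0.14 on the log2 scale in these 3 comparisons, and the values of the groups overlapped for every member in each. Both comparisons with Conv + PBS mice use the same 6 controls.

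**Figure D1:**
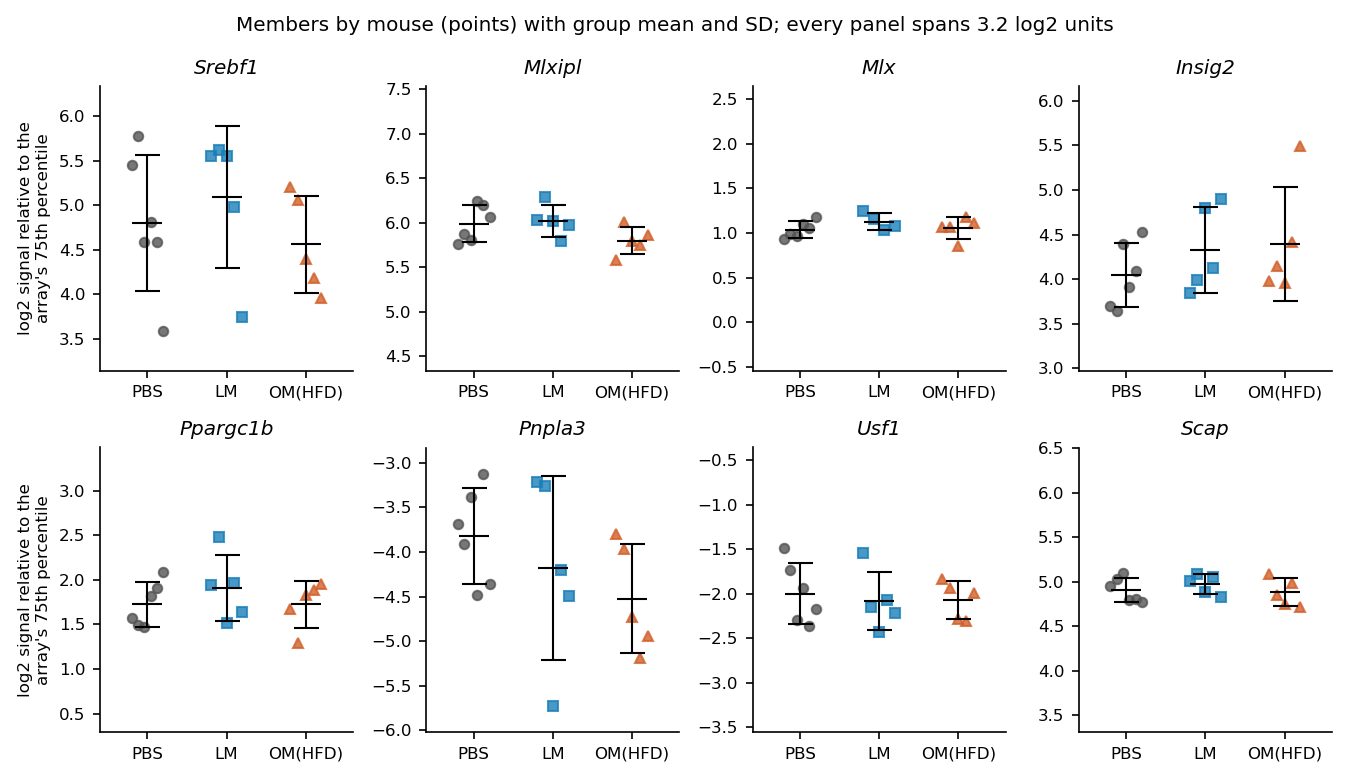
Log2 signal of the probe that stood for each of the 8 genes, relative to the 75th percentile of the array (y axis), in Conv + PBS (circles), Conv + LM (squares) and Conv + OM(HFD) mice (triangles), with 1 point per mouse and lines at the mean and SD of the group. All panels have the same height in log2 units, so that the wide scatter of Srebf1, Insig2 and Pnpla3 within groups and the narrow one of Mlx and Scap can be read directly.

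Srebf1, the SREBP-1 gene, varied 4.53-fold among the 16 mice, mostly within groups. Its level was 5.46, 5.77, 4.59, 4.82, 4.59 and 3.59 in Conv + PBS mice 1 to 6. It was 5.55, 5.62, 5.56, 4.98 and 3.75 in Conv + LM mice 13 to 17, and 5.21, 5.06, 4.39, 4.19 and 3.96 in Conv + OM(HFD) mice 25, 26, 28, 29 and 30. The lowest mouse of the study was a control, and 1 Conv + LM mouse lay nearly as low while the other 4 were at or above 4.98. Conv + OM(HFD) mice were at -0.24 ± 0.40 (SE) relative to Conv + PBS mice (exact permutation p = 0.56) and at -0.53 ± 0.42 relative to Conv + LM mice (exact permutation p = 0.26). The first difference was -0.47 and 0.0029 within slides and ranged from -0.48 to -0.048 with each mouse left out in turn. Its 95% confidence interval ran from -1.10 to 0.61, or from 0.467 to 1.53 times the control level. Within slides, the second difference was -1.07 and -0.14. With each mouse left out in turn it ranged from -0.87 to -0.38, and only without mouse 17 of Conv + LM, at -0.87, did it pass an unadjusted p under 0.05 in limma.

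Groups explained 9.65% of the variance of Srebf1 across the 16 mice. Its within-group SD of 0.71 exceeded that of 99.1% of the genes of like brightness, whose median SD was 0.14. The SD of Insig2, 0.50, exceeded that of 97.9% of genes of its brightness, whereas that of Mlx, 0.10, exceeded that of 3.67%.

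Mlxipl, the ChREBP gene, was much steadier, with a 1.64-fold range. It measured 5.76, 5.87, 5.81, 6.24, 6.19 and 6.07 in Conv + PBS mice 1 to 6, and 6.03, 6.29, 6.02, 5.79 and 5.97 in Conv + LM mice 13 to 17. Conv + OM(HFD) mice 25, 26, 28, 29 and 30 measured 5.58, 6.00, 5.80, 5.75 and 5.86. Conv + OM(HFD) mice thus occupied the lower part of the range, and 1 of them, at 6.00, lay in the middle of the control values. The difference was -0.19 ± 0.11 (SE) from Conv + PBS mice (exact permutation p = 0.13) and -0.22 ± 0.12 from Conv + LM mice (exact permutation p = 0.071). The latter was -0.41 and -0.051 within slides and -0.042 with the mean of the 3 probes. It ranged from -0.28 to -0.15 with each mouse left out in turn, and reached an unadjusted limma p of 0.037 without Conv + LM mouse 16 (-0.28) and of 0.044 without Conv + OM(HFD) mouse 26 (-0.27).

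The 3 Mlxipl probes did not all share this pattern. Set against the controls, Conv + OM(HFD) mice were at 0.12 ± 0.087 (SE) by A_55_P2045158 and at -0.13 ± 0.21 by A_55_P2728555. Across mice, A_55_P2045158 and the standing probe had r = 0.027 on deviations from group means, whereas the probe with shared runs, A_55_P2728555, had the sign of the standing probe and r = 0.58 with it (permutation p = 0.028).

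Mlx, which encodes the obligate partner of ChREBP, had the narrowest range of the 8 after Scap. Its probe A_51_P261443 ran from 0.93 to 1.18 in Conv + PBS mice, from 1.04 to 1.25 in 4 Conv + LM mice and between 0.85 and 1.18 after transfer of obese microbiota. Conv + LM mouse 13 was left out of this gene because Feature Extraction marked its spot as an outlier, at a value of 3.05. Relative to the controls, the difference was 0.019 ± 0.077 (SE) in Conv + OM(HFD) and 0.093 ± 0.082 in Conv + LM mice. With that spot kept, a setting chosen after the data were seen, the latter was 0.48 (unadjusted p = 0.10), and Conv + OM(HFD) relative to Conv + LM mice went from -0.073 to -0.46 (unadjusted p = 0.13). A dimmer probe, A_66_P117739, ranged 3.57-fold and did not follow it (r = -0.21).

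Insig2, an anchor that retains the SCAP-SREBP complex in the endoplasmic reticulum, varied 3.59-fold. It stood at 3.70, 3.65, 4.40, 3.91, 4.09 and 4.53 in Conv + PBS mice 1 to 6, and at 3.84, 3.99, 4.80, 4.12 and 4.89 in Conv + LM mice 13 to 17. In Conv + OM(HFD) mice 25, 26, 28, 29 and 30 it stood at 3.97, 4.15, 3.95, 4.42 and 5.49. Mouse 30 was the highest of the study, and the other 4 lay within the control range. The difference of Conv + OM(HFD) from Conv + PBS mice was 0.35 ± 0.28 (SE; exact permutation p = 0.30), and 0.078 without mouse 30. The 3 Insig2 probes gave 0.35, 0.36 and 0.35 for this difference and correlated with each other at r = 0.94 to 0.98 across mice. A pair of them overlaps, at chr1:123201085-123201144 and chr1:123201071-123201130, and the third, at chr1:123203517-123203752, shares no run with them.

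Scap, the escort of SREBP, ranged 1.30-fold in all, from 4.72 in Conv + OM(HFD) mouse 30 to 5.10 in Conv + PBS mouse 3. Its differences between groups lay between -0.092 and 0.065. Usf1, the E-box factor, ranged from -2.43 to -1.49, and its largest difference was -0.085 ± 0.18 (SE; Conv + LM vs. Conv + PBS mice). Its 2 probes correlated at r = 0.64. Ppargc1b, the coactivator gene, ranged from 1.29 to 2.48, with its highest value in Conv + LM mouse 14. Relative to the controls it was at 0.0024 ± 0.17 (SE) in Conv + OM(HFD) and at 0.19 ± 0.17 in Conv + LM mice. Its 2 probes followed each other (r = 0.82).

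Pnpla3, the lipid droplet protein gene, was close to background, and its differences depended on how the background was treated. Its standing probe measured -3.68, -3.91, -3.38, -4.49, -3.12 and -4.36 in Conv + PBS mice 1 to 6, all well above background. In Conv + LM mice 13 to 17 it measured -3.22, -3.26, -5.73, -4.20 and -4.49, with mouse 15 not above background. In Conv + OM(HFD) mice 25, 26, 28, 29 and 30 it measured -3.80, -3.97, -4.73, -5.19 and -4.94, and only the first 2 were above background. Conv + OM(HFD) mice were at -0.70 ± 0.42 (SE) relative to Conv + PBS mice (unadjusted limma p = 0.11, exact permutation p = 0.078).

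The size of this difference and its call depended on the processing. It was -0.096 under normexp background correction (unadjusted limma p = 0.30) and -0.25 with the authors' processed values (unadjusted limma p = 0.15), against 0.33 and 0.34 for Insig2 under the same settings. With the slide as a block it was -0.78 (unadjusted p = 0.045), and with only the mice of both groups in the fit the p was 0.046. The difference of Conv + LM from Conv + PBS mice, -0.36 ± 0.42 (SE), became -0.041 under normexp and -0.092 with the authors' values. Within slides, Conv + OM(HFD) mice were at -1.02 relative to the controls on the first and at -0.41 on the second. The other probe, A_51_P389265, was above background in 5 of 6 Conv + PBS, 1 of 5 Conv + LM and 1 of 5 Conv + OM(HFD) mice. Its values ran from -5.13 to -2.97 in Conv + PBS, from -6.50 to -4.13 in Conv + LM and between -5.12 and -4.39 in Conv + OM(HFD) mice. With 1 of 5 arrays above background in each recipient group, no difference is given for it. Pnpla3 also moved with the 75th percentile of brightness of the array (r = 0.69, permutation p = 0.0046, adjusted over 60 relations p = 0.039), with 0.51 left without the 2 farthest mice, and its part in the difference was not tested.

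**Figure D2:**
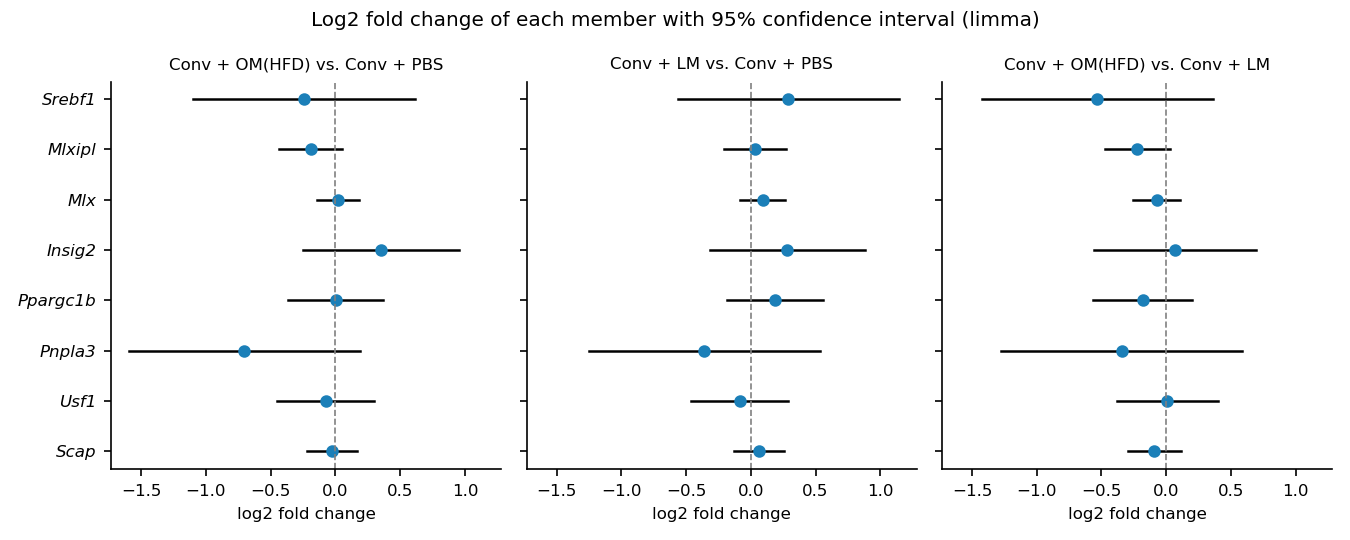
Log2 fold change (x axis) of each of the 8 genes in the 3 comparisons, with points for the limma estimate and lines for its 95% confidence interval. Every interval includes 0, and those of Srebf1, Insig2 and Pnpla3 are the widest.

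Relative to the controls, most lipogenic enzyme genes had lower values in Conv + OM(HFD) mice at an unadjusted limma p, and 0 of 8 passed after adjustment over all genes. All 8 enzyme genes (Acly, Acss2, Acaca, Acacb, Fasn, Scd1, Elovl6 and Me1) had negative differences in Conv + OM(HFD) relative to Conv + PBS mice, with a median of -0.56, and 5 of 8 passed an unadjusted limma p under 0.05 where 3.27% of genes did. Fasn, the fatty acid synthase gene, was at -0.76 ± 0.34 (SE; exact permutation p = 0.067) and Acss2, which makes acetyl-CoA from acetate, at -0.52 ± 0.17 (exact permutation p = 0.019). Acacb was at -0.58 ± 0.22 (exact permutation p = 0.0022, the smallest these group sizes allow) and Acaca at -0.54 ± 0.24 (exact permutation p = 0.054). The study drew Fasn, Acaca, Acacb and Acss2 as a network of lowered genes from these mice, so their direction is not independent evidence. Elovl6, a fatty acid elongase, was the only one of the 5 outside that network (-0.64 ± 0.29, exact permutation p = 0.061). Against Conv + PBS mice, Conv + LM mice also had 8 of 8 negative differences (median -0.32), and 1, Me1, which supplies NADPH, passed (-0.43 ± 0.15). Whether enzymes and regulators differed in their shift was not tested.

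Few regulators outside the 8 passed a test between groups. Of 19 genes of SREBP processing and turnover, 1 passed an unadjusted limma p under 0.05 in each comparison, a share near the 3.27%, 3.95% and 2.71% of all genes that passed. Insig1, the sterol-responsive partner of Insig2, was at -0.32 ± 0.10 (SE) in Conv + OM(HFD) and -0.31 ± 0.10 in Conv + LM relative to the shared Conv + PBS mice, and Mbtps1, the site-1 protease that cuts SREBP, was at -0.25 ± 0.081 in Conv + OM(HFD) relative to Conv + LM mice. Of 16 upstream factors and cofactors, among them the LXR genes, Foxo1 and Irs2, 0 passed in any comparison. Of 12 genes of the MLX and MAX network and of ChREBP regulation, 1 passed in each comparison of Conv + OM(HFD) mice. Mxd4, a MAX partner that represses transcription, was at -0.26 ± 0.077 relative to the controls and Hcfc1, a ChREBP cofactor, at -0.26 ± 0.098 relative to Conv + LM mice.

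Some target genes of the regulators passed an unadjusted p between Conv + OM(HFD) mice and the controls, where 3.27% of all genes did, and whether the lists differ from other genes was not tested. Of 12 ChREBP targets, 10 had negative differences between Conv + OM(HFD) mice and the controls (median -0.32, against -0.00038 over all genes). Khk, the ketohexokinase of fructose use (-0.37 ± 0.11, SE), and Slc2a2, the hepatic glucose transporter GLUT2 (-0.40 ± 0.19), passed an unadjusted limma p under 0.05. Of 11 further SREBP-1c targets, 8 were negative, with a median of -0.032, and Thrsp, a lipogenic accessory protein gene (-0.89 ± 0.33), and Gpam, which starts triglyceride synthesis (-0.18 ± 0.085), passed. Thrsp was also at -0.99 ± 0.34 relative to Conv + LM mice. Of 17 SREBP-2 targets of cholesterol synthesis, 17 were negative (median -0.22), and Sc5d, a late enzyme of the pathway (-0.31 ± 0.12), was among those that passed. For Conv + LM vs. Conv + PBS mice, with the same controls, 10 of 12 ChREBP targets were also negative (median -0.15). So were 6 of 11 further SREBP-1c targets (median -0.019) and 14 of 17 SREBP-2 targets (median -0.096), against -0.014 over all genes. Khk (-0.26 ± 0.11) was among the target genes that passed in Conv + LM mice, where 3.95% of all genes did. None of these genes passed after adjustment over 20404 genes.

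Across mice, Srebf1 and the enzymes had a positive r. Over the 16 mice, with values taken as deviations from group means, Srebf1 correlated with the mean of the 8 enzymes at r = 0.72 (permutation p = 0.0042, rho = 0.67, permutation p = 0.0069). It was 0.61 without the 2 mice farthest from the median enzyme mean (permutation p = 0.054), and 0.70 (permutation p = 0.25) and 0.68 (permutation p = 0.13) within the 2 slides of 8 mice. Mlxipl had r = 0.33 (permutation p = 0.27), Scap 0.32, Mlx 0.14 and Ppargc1b -0.060. Pnpla3 (r = 0.57, permutation p = 0.049) and Usf1 (r = 0.49, permutation p = 0.098) lay between Srebf1 and Mlxipl, and Insig2 was negative (r = -0.52, permutation p = 0.044). Whether the r of Srebf1 and that of Mlxipl differ was not tested. Without the same 2 mice, Mlxipl had r = 0.55, Mlx 0.55, Pnpla3 0.42, Usf1 0.22, Scap 0.19, Ppargc1b 0.17 and Insig2 -0.35. Mlx was at 0.53 without Conv + PBS mouse 6 alone, and Usf1 at 0.29 without Conv + LM mouse 13 alone. Pnpla3 had r = 0.31 and 0.026 within slides, and Usf1 0.73 and 0.40. Without centring on groups, r was 0.66 for Pnpla3 and 0.60 for Srebf1. These p-values are unadjusted.

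No member passed in the fit over all genes. With the group and the enzyme mean as terms in limma, 0 of 8 members had an adjusted p under 0.05 (Srebf1, adjusted p = 0.16), where 0.00981% of 20396 genes did. At an unadjusted p under 0.05 there were 3 of 8 members, Srebf1, Pnpla3 and Insig2, against 14.4% of genes. In all, 38 relations of members and enzymes with Srebf1, Mlxipl and the enzyme mean were computed.

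**Figure D3:**
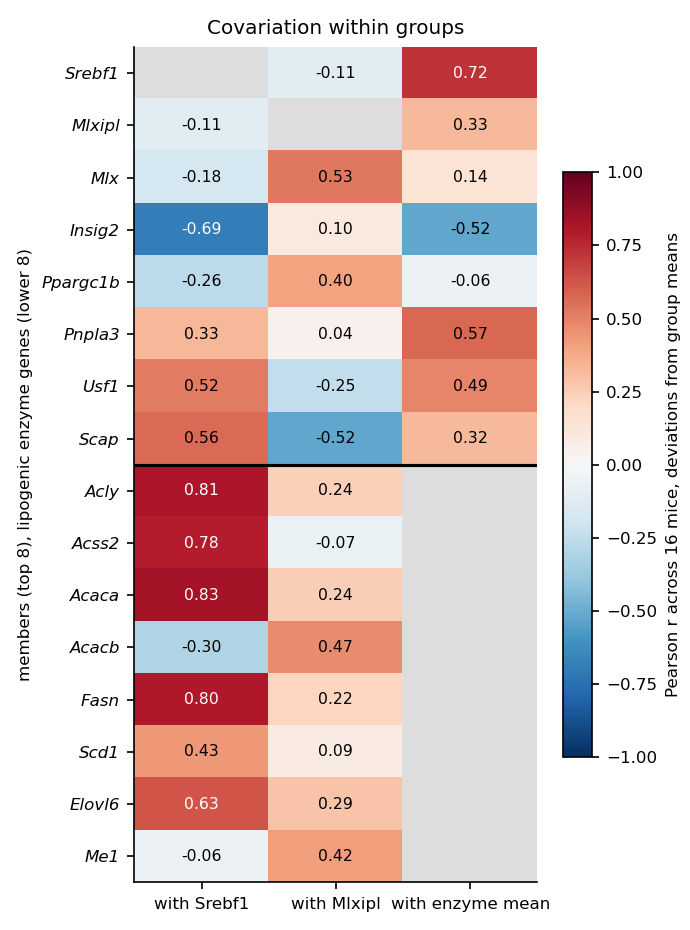
Pearson r across 16 mice (15 for Mlx), on deviations from group means, of each member and each lipogenic enzyme gene with Srebf1, with Mlxipl and with the mean of the 8 enzymes, with grey cells where a gene would be set against itself or against a mean that holds it. The first column ranges from -0.69 for Insig2 to 0.83 for Acaca, and the second stays between -0.52 and 0.53.

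The relation with the enzymes was carried by some of the 8. With Srebf1 as the term in limma, Acaca, which makes malonyl-CoA for synthesis (r = 0.83, adjusted p = 0.0084), Acly, the citrate lyase (r = 0.81, adjusted p = 0.011), Fasn (r = 0.80, adjusted p = 0.012) and Acss2 (r = 0.78, adjusted p = 0.022) passed, which is 4 of 8 where 5.72% of 20403 genes did. A count of 5 of 8 passed an unadjusted p, where 20.8% of genes did. Acly and Acaca lay on the same side of their group means as Srebf1 in 14 of 16 mice. Elovl6 (r = 0.63, adjusted p = 0.095) and Scd1, the stearoyl-CoA desaturase (r = 0.43), did not pass, and Me1 (r = -0.055) and Acacb, the mitochondrial carboxylase (r = -0.30), were near or below 0. Me1 had r = -0.63 on the first and 0.65 on the second slide. Leaving out Conv + PBS mouse 6, which had the lowest Srebf1, left 2 enzymes, Acaca and Acly. Without both mice farthest in Srebf1, the 4 had r = 0.62 to 0.70.

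Among the members, Insig2 ran against Srebf1. The pair had r = -0.69 (permutation p = 0.0014, rho = -0.71, permutation p = 0.0033), -0.60 without the 2 mice farthest in Srebf1, and -0.73 and -0.68 within slides, and 13 of 16 mice lay on opposite sides of their group means. Its adjusted p of 0.053 in limma missed the threshold, so 0 of 7 members passed, where 5.72% of genes did. By r with Srebf1, Insig2 ranked 817 from the lowest of 20403 genes. Insig2 passed under normexp background correction, quantile normalization, the stricter filter on dim probes, and without Conv + LM mouse 15 or Conv + OM(HFD) mouse 28. Scap (r = 0.56, adjusted p = 0.25) and Usf1 (r = 0.52, adjusted p = 0.23) were on the positive side. Usf1 and Insig2 were the 2 of 7 at an unadjusted p under 0.05, where 20.8% of genes were.

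**Figure D4:**
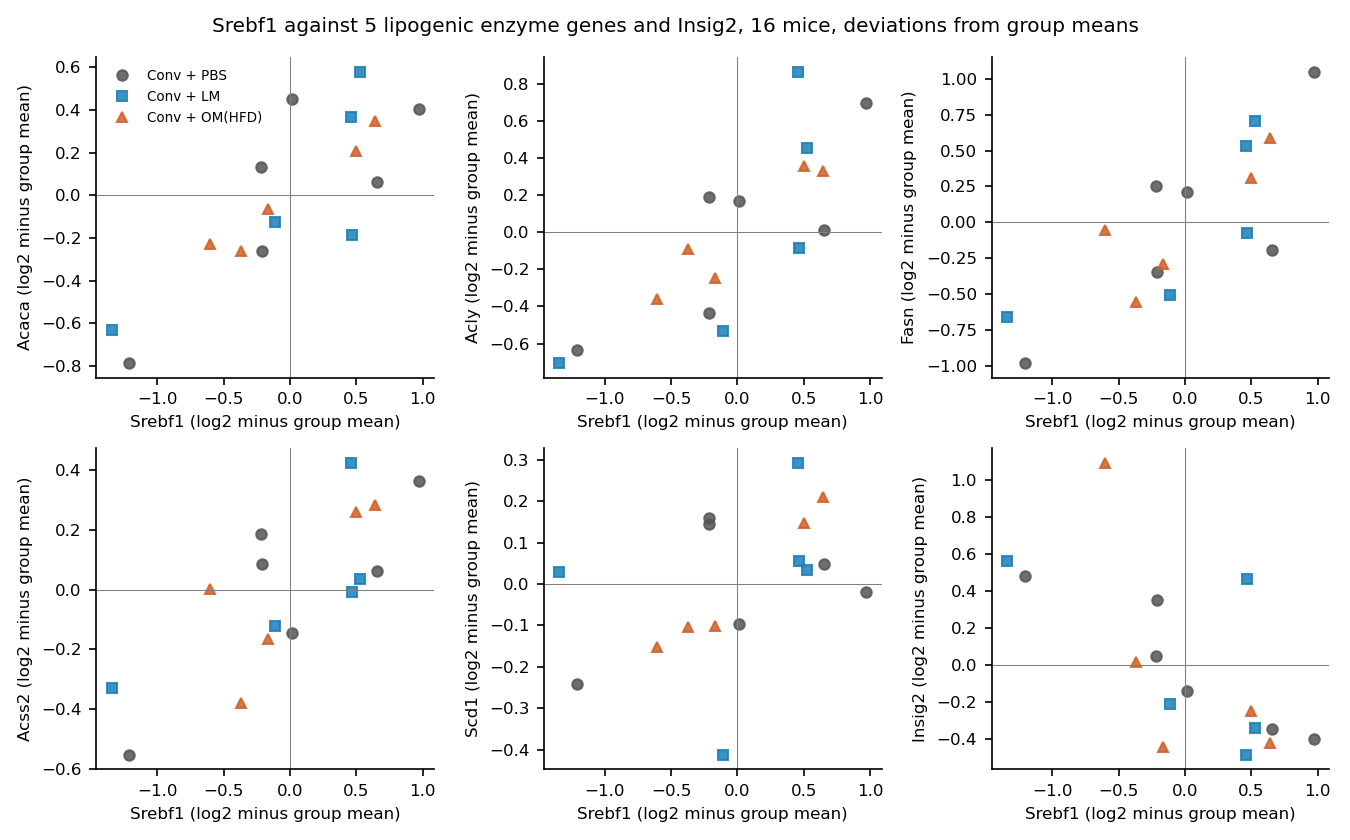
Log2 level of Srebf1 (x axis) against Acaca, Acly, Fasn, Acss2, Scd1 and Insig2 (y axes), each minus the mean of its group, with 1 point per mouse in Conv + PBS (circles), Conv + LM (squares) and Conv + OM(HFD) mice (triangles). The 4 enzymes that passed climb with Srebf1 (r = 0.78 to 0.83), Scd1 climbs less (r = 0.43) and Insig2 declines (r = -0.69), with mice of all groups along each trend.

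No gene passed with Mlxipl. In limma, 0 of 7 members and 0 of 20403 genes (0%) were associated with it at an adjusted p under 0.05, and 0 of 7 members at an unadjusted p, where 6.2% of genes (1264) were. Its largest relations among the 8 were with its partner Mlx (r = 0.53, permutation p = 0.054) and with Scap (r = -0.52, permutation p = 0.058). The enzymes ran from r = -0.069 for Acss2 to 0.47 for Acacb, and 0 of 8 passed an unadjusted p. Of 12 ChREBP targets, 11 had a positive r with Mlxipl (median 0.29, against -0.0041 over all genes).

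Some genes of other lists were associated with Srebf1 as well, where 5.72% of all genes passed. With a clock or a fasting score as a covariate in the fit, 0 genes passed. Of 11 further SREBP-1c targets, 11 had a positive r and 3 passed an adjusted p, among them Mid1ip1, a partner of acetyl-CoA carboxylase (r = 0.96), and Thrsp (r = 0.77). Of 17 SREBP-2 targets, 17 had a positive r (median 0.51, against -0.071 over all genes) and 2 passed, Sc5d and Mvk. Of 12 ChREBP targets, 8 had a positive r (median 0.25), and 2 passed, both on the negative side, Txnip (r = -0.81), an inhibitor of thioredoxin, and Fgf21 (r = -0.72), a hormone of the fasted liver. Of 16 upstream factors, Irs2, the insulin receptor substrate that is induced in fasting, passed on the negative side (r = -0.89), and Nr0b2, Bhlhe40 and Prkdc on the positive side. Of the MLX and MAX network, Ogt passed on the positive side and Myc and Hnf4a on the negative side, and of SREBP processing Rnf145 (r = 0.79), an E3 ligase of SCAP, and Erlin1 (r = 0.74) on the positive side. Irs2, Txnip, Fgf21 and the further genes that passed this test were named for it after their values were seen.

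The genes nearest to Srebf1, Insig2, Mlxipl and Pnpla3 by r over 16 mice were also read. For Srebf1 they were NAP097103-001 (r = 0.96), Mid1ip1 (0.96), Ihh (0.96), Trim26 (0.95) and Nmnat3 (0.94). For Insig2 they were Etfdh (0.93), Tymp (0.93), Sco2 (0.91), Elovl3 (0.90) and Pgrmc2 (0.89), of which Etfdh passes electrons from fatty acid oxidation to the respiratory chain. For Mlxipl they were Uqcrc1 (0.88), Gm10087 (0.83), ENSMUST00000171170 (0.83), Msantd1 (0.82) and Scarf1 (0.81). For Pnpla3 they were Chrna4 (0.84), Eppk1 (0.83), Ptgds (0.82), Rab38 (0.82) and Pnpla5 (0.82), the last a gene of the same family. These are the highest of 20403 values each and carry no test.

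Srebf1 and Insig2 also moved with clock and fasting genes. A clock score was taken as the mean of Arntl, Npas2 and Clock minus the mean of Dbp, Tef, Nr1d1, Per3 and Ciart, which peak at opposite times of day, and a fasting score as the mean of 8 genes induced in the fasted liver, among them Pdk4, Cpt1a, Angptl4, Cyp4a14, Ehhadh, Plin2 and Acot1. Srebf1 had r = -0.84 with the clock score (rho = -0.83, adjusted over 60 relations p = 0.0012) and r = -0.90 with the fasting score (rho = -0.89, adjusted p = 0.00090 by permutation). Insig2 had r = 0.88 and 0.76 with these scores, the enzyme mean -0.60 and -0.66, and Mlxipl 0.30 and 0.30. Within slides, Srebf1 had r = -0.79 and -0.92 with the clock score, and r was -0.79 without the 2 farthest mice. Both scores themselves correlated at r = 0.95, so time of day and fasting cannot be told apart here.

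These scores spanned a similar range in every group. The clock score ran from -3.09 to -0.82 in Conv + PBS, from -3.31 to -0.56 in Conv + LM and between -3.19 and -0.10 after transfer of obese microbiota, with medians of -2.03, -2.08 and -2.01. Conv + PBS mouse 6 and Conv + LM mouse 17, which had the lowest Srebf1, had the highest fasting scores of their groups, 6.28 and 6.26. Conv + OM(HFD) mouse 30, with the highest Insig2, had the highest clock score of the study.

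**Figure D5:**
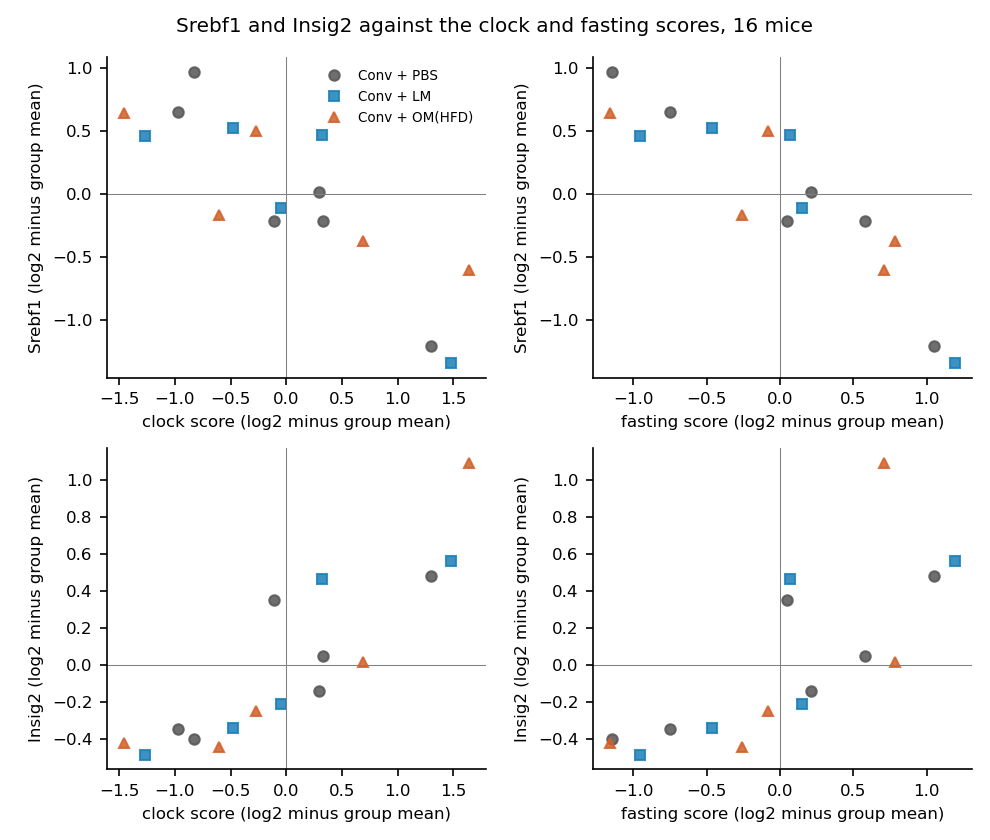
Log2 levels of Srebf1 (upper row) and Insig2 (lower row), minus the group mean (y axes), against the clock score and the fasting score, minus the group mean (x axes, log2 units), in 16 mice with circles for Conv + PBS, squares for Conv + LM and triangles for Conv + OM(HFD). Srebf1 declines and Insig2 climbs along both scores (r = -0.84 and 0.88 with the clock score), with mice of all groups along each trend.

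The enzymes' calls with Srebf1 were lost when a score was added to the fit, while the errors of the slopes grew. With the clock score as a covariate in limma, 0 of 8 enzymes and 0 genes were associated with Srebf1 at an adjusted p under 0.05, and 3 of 8 enzymes (Acaca, Acly and Fasn) at an unadjusted p, where 6.02% of genes were. With the fasting score, 0 of 8 enzymes passed an adjusted and 0 of 8 an unadjusted p, where 5.59% of genes passed the latter. The slope of Acaca on Srebf1 was 0.49 ± 0.091 (SE) without a score, 0.44 ± 0.17 with the clock score and 0.45 ± 0.21 with the fasting score, and that of Acly was 0.57 ± 0.11, 0.52 ± 0.22 and 0.48 ± 0.27. The slope of Fasn was 0.67 ± 0.14, 0.77 ± 0.26 and 0.54 ± 0.32 in the same order. That of Acss2 was 0.32 ± 0.074, 0.27 ± 0.14 and 0.19 ± 0.17, and that of Elovl6 0.45 ± 0.15, 0.37 ± 0.29 and 0.25 ± 0.35. The slope of Srebf1 on the enzyme mean went from 1.70 ± 0.44 to 0.79 ± 0.39 with the clock score and to 0.54 ± 0.36 with the fasting score. For Insig2 the slope on Srebf1 was -0.48 ± 0.14 without a score, 0.12 ± 0.18 with the clock score and -0.042 ± 0.29 with the fasting score.

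With a score in the fit, Mlxipl was associated with more enzymes, before adjustment. Reading the enzymes in fits with a score was chosen after the data had been seen. At an unadjusted p, 4 of 8 enzymes (Acaca, Acly, Elovl6 and Fasn) were then associated with Mlxipl, where 6.38% of genes were with the clock score and 6.63% with the fasting score. The r of Acaca with Mlxipl was 0.24 without a score, 0.71 with the clock score and 0.77 with the fasting score taken out of both. Of the 8 members, 1, Mlxipl, was associated with the enzyme mean at an unadjusted p in these fits, where 4.98% of genes passed with the clock score and 4.54% with the fasting score. Its adjusted p in limma was 0.93 and 0.97. Of the 8 enzymes, 0 passed an adjusted p with Mlxipl (lowest 0.70), where 1 gene passed with the clock score and 2 with the fasting score. What the scores share with these genes was not tested.

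Markers of other cell types were set beside the same genes. With Srebf1, the r of marker means was 0.25 for 6 Kupffer cell, 0.43 for 6 neutrophil, -0.062 for 6 adipocyte, 0.17 for 8 pancreas and -0.089 for 4 red blood cell genes, and none passed after adjustment over 60 relations. Of the adipocyte genes, Lep was above background on 16 arrays, Cfd on 14, Cidea on 9, Plin1 on 7, Retn on 2 and the defining gene Adipoq on 1, and their summed level ran from -0.53 to 0.36 in Conv + PBS, from -0.21 to 2.90 in Conv + LM and between -0.36 and 0.57 in Conv + OM(HFD) mice. Of the pancreatic genes, Cela1, Cela2a and Ctrb1 were above background on 16 arrays, Prss2 and Pnlip on 1 each and Cela3b, Cpa1 and Cpb1 on 0. The summed neutrophil level ran from -0.91 to 4.44 in Conv + PBS, from -0.95 to 0.085 in Conv + LM and between -0.94 and 4.34 after transfer of obese microbiota, with 2 of 6 genes above background on all arrays. For Pnpla3, adipocyte markers had r = -0.69, with an adjusted permutation p of 0.11, and r was -0.26 without the 2 farthest mice. Their part in these results was not tested.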

How the data were processed

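Liver RNA of 16 mice was labelled with Cy3 and hybridized to Agilent SurePrint mouse arrays, 1 mouse per array on 2 slides of 8 arrays. Per the file headers, the authors extracted spots with Feature Extraction 10.10.1.1, which gives an intensity per spot corrected for background and not normalized between arrays. The authors also deposited log2 values, which had the rank order of the median spot intensity on each array and served as an alternative. The submitters' notes also list limma, without a version. Control spots and spots marked as outliers were left out, and values were the log2 intensity less the array's own 75th percentile. Genes needed a probe well above background on at least 5 of 16 arrays, and the probe with the highest mean stood for the gene. Groups came from the labels. Groups were compared with lmFit and eBayes (limma 3.58.1, R 4.3.3), all 3 groups in 1 fit, with Benjamini-Hochberg adjustment over 20404 genes, and with exact two-sided permutation tests. These cannot give a p under 0.00216 for 5 mice against 6 or 0.00794 for 5 against 5. Relations across mice used deviations from group means, 100000 two-sided permutations within groups, and limma with the group as a term.

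An unpaired t-test used identical values and mice. The study lists this test in its general statistics, and its array methods name a threshold and no test. Fits were checked on simulated data. The number of arrays limits the precision. The p-values set differences against the spread between mice, and do not cover a spread between cages or donor pools. Named genes are the members, the enzymes, genes of fixed lists (enzymes, SREBP processing, upstream factors, MLX and MAX network, ChREBP and SREBP targets, clock, fasting and cell type markers) at an unadjusted p under 0.05, and the 5 genes nearest to 4 members. A few list genes that met this rule or entered a list's count or mean are not reported here by name. Members and lists were chosen with earlier results of these data known. Mxd3 was not above the filter and Dak is not on the array. Of 20404 gene names, 14635 matched a current RefSeq symbol (GRCm38.p6). Alternatives were normexp background correction (offset 50), quantile normalization, the authors' values, other filters, the slide as a block, probe means, only the mice compared, score covariates and leaving out each mouse.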

Additional observations from a re-analysis of the deposited data

How the results depend on the processing

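No paired analysis was possible because no mouse number occurs in more than 1 group. The count of members that passed an unadjusted p in Conv + OM(HFD) relative to Conv + PBS mice became 1 (Pnpla3) with the slide as a block, where 696 genes passed. It was also 1 (Pnpla3) with only the mice of the groups compared, where 635 genes passed. For Conv + LM vs. Conv + PBS mice it became 1 (Pnpla3, -0.85) with the mean of all probes, where 809 genes passed. That mean includes a Pnpla3 probe above background in 1 of 5 mice of each recipient group. Members associated with Srebf1 became 1 (Insig2) with normexp correction, quantile normalization and probes well above background on all arrays. In these settings 1184, 1309 and 1410 genes passed. Enzymes associated with Srebf1, a result added after the data were seen, became 0 with the clock or the fasting score as a covariate, where the slope of Acaca went from 0.49 to 0.44 and 0.45, that of Acss2 from 0.32 to 0.27 and 0.19, and that of Srebf1 on the enzyme mean from 1.70 to 0.79 and 0.54. The cause was not tested. With each mouse left out in turn, member counts were 0 to 0, 0 to 0 and 0 to 1 in the 3 comparisons in the order above with Conv + OM(HFD) vs. Conv + LM last, 0 to 1 for Srebf1, 0 to 0 for Mlxipl and the enzyme mean, and 2 to 5 for enzymes with Srebf1.

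Signs of log2 differences that passed no test changed as follows. Conv + OM(HFD) vs. Conv + PBS mice gave -0.0089 (normexp), -0.0050 (authors' values) and -0.012 (slide as a block) for Ppargc1b, and with probe means -0.15 for Mlx and 0.016 for Usf1. Conv + LM vs. Conv + PBS mice gave -0.095 for Mlx and -0.025 for Mlxipl with probe means. Conv + OM(HFD) vs. Conv + LM mice gave 0.0049 (normexp) and 0.052 (authors' values) for Mlx, -0.017 for Usf1 (quantile normalization) and 0.11 for Pnpla3 (probe means, including that probe). For r with the enzyme mean, Mlxipl was -0.21 within the first slide, Mlx was -0.40 and Scap -0.21 within the second, Ppargc1b was 0.17 without the 2 farthest mice, and Mlx was -0.055 without centring on groups. Without each mouse in turn, Conv + OM(HFD) vs. Conv + PBS mice ranged from -0.011 to 0.070 for Mlx, -0.054 to 0.11 for Ppargc1b, -0.15 to 0.027 for Usf1 and -0.079 to 0.014 for Scap. Conv + LM vs. Conv + PBS mice ranged from -0.037 to 0.089 for Mlxipl, -0.22 to 0.017 for Usf1 and -0.60 to 0.029 for Pnpla3, and Conv + OM(HFD) vs. Conv + LM mice from -0.21 to 0.21 for Insig2 and -0.076 to 0.14 for Usf1. Of 213 fold changes under other settings, 199 kept sign and side of the threshold. Sizes could still change, as for Pnpla3 in Conv + OM(HFD) relative to Conv + PBS mice (-0.70 as reported, -0.096 with normexp, -0.25 with the authors' values), and for Mlxipl in Conv + OM(HFD) relative to Conv + LM mice (-0.22, and -0.042 with probe means). Pnpla3 was above background on 12 of 16 arrays, which limits its values.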
